A study of Rattus norvegicus with 36 samples.

Results

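The genes described here encode the Rab and Arf GTPases, SNARE proteins, synaptotagmins, synapsins, Vps proteins and clathrin adaptor subunits of vesicle traffic, followed in 2 rat muscles after birth. Members were chosen by symbol: Rab followed by a number, Stx, Vamp, Snap, Syt, Syn followed by a number, Vps, Arf followed by a number, or an Ap1, Ap2 or Ap3 subunit. A probe set also had to exceed an intensity of 320.4 on 3 or more of the 36 arrays, and the probe set of highest mean stood for its gene. Of the 87 matching genes on the array, 75 passed, out of 3889 genes tested in all. They are 25 Rab GTPases, 2 proteins that act on Rabs (Rab11fip5 and Rab3ip), 10 target SNAREs, 4 vesicle SNAREs, 10 synaptotagmins, 2 synapsins, 7 Vps proteins, 6 Arf GTPases, 8 adaptor subunits and the SNARE partner Stxbp5.

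Vesicle traffic moves membrane and cargo between compartments in ordered steps. Arf GTPases and adaptor complexes help to form coated vesicles, Rab GTPases in their GTP-bound form recruit the motors and tethers that bring a vesicle to its target, and a vesicle SNARE then pairs with target SNAREs to fuse the membranes. Synaptotagmins bind membranes through C2 domains, and several of them act as calcium sensors of release at nerve terminals. In muscle fibres this machinery carries the glucose transporter GLUT4 and membrane receptors to and from the surface, while in the motor nerve terminals within a muscle it releases acetylcholine.

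Total RNA of extraocular muscle (EOM), the muscles that move the eye, and of leg muscle, gastrocnemius together with soleus, was hybridised to Affymetrix rat genome U34 arrays (version A). The groups were EOM at postnatal days 0, 7, 14, 21, 28 and 45 and leg muscle at the same 6 ages, with 3 arrays in each of the 12 groups. Strain, sex, treatment and pooling are not given in the labels, which also do not say that the 3 replicates came from separate animals, so each p-value reflects the spread among the arrays, which may be technical. These are whole muscles, in which fewer cells of a type and less RNA per cell cannot be told apart.

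The median intensity of an array lay between 418.7 and 652.2, and within a group the correlation of arrays over probe sets was 0.877 to 0.953. The number of arrays limits the precision. Myh13, the myosin heavy chain of eye muscle, read 16469, 17501 and 35126 on the EOM arrays at day 45, against 410, 1147 and 104 on the leg arrays. The 11 tested fibre markers summed to 102900 to 150900 per array in EOM and 158900 to 176400 in leg at day 21, and to 105100 to 145800 in EOM and 168000 to 180100 in leg at day 28. Tested singly, none of the 11 passed between the muscles at day 21, and 1 passed as lower in EOM at day 28. Ckm, the muscle creatine kinase, lay at the floor of the scale (100.9) on all 3 arrays of both muscles at days 21 and 28. Replicate 2 of EOM at day 45 had the highest array median, 652.2. The mean correlation with the other arrays of the group was lowest in EOM at day 45. There it was 0.905, 0.896 and 0.886 for replicates 1, 2 and 3.

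At single ages few of the 75 genes differed between EOM and leg, and those that did were largely the same few names. Rab15 was higher in EOM at days 14, 21, 28 and 45, Syt17 at days 7, 14, 28 and 45, and Rab3a at days 28 and 45. Of these, Rab15 was tested only through EOM, where it is high. Vamp5 was lower in EOM at days 28 and 45 and Stx4 at days 7 and 14. Between day 0 and day 45, 6.67% of the members rose and 24% fell in EOM, against 13.3% and 18.8% of all genes. In leg 8% rose and 18.7% fell, against 14.5% and 18.8%. In both muscles 10 members fell, Rab8a, Arf4, Arf6, Stx12 and Rab4b among them, a share not computed over all genes. Vamp5 ran the other way, with 1 of its 2 probe sets 10.5-fold brighter in leg muscle at day 45 than at day 0.

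**Figure D1:**
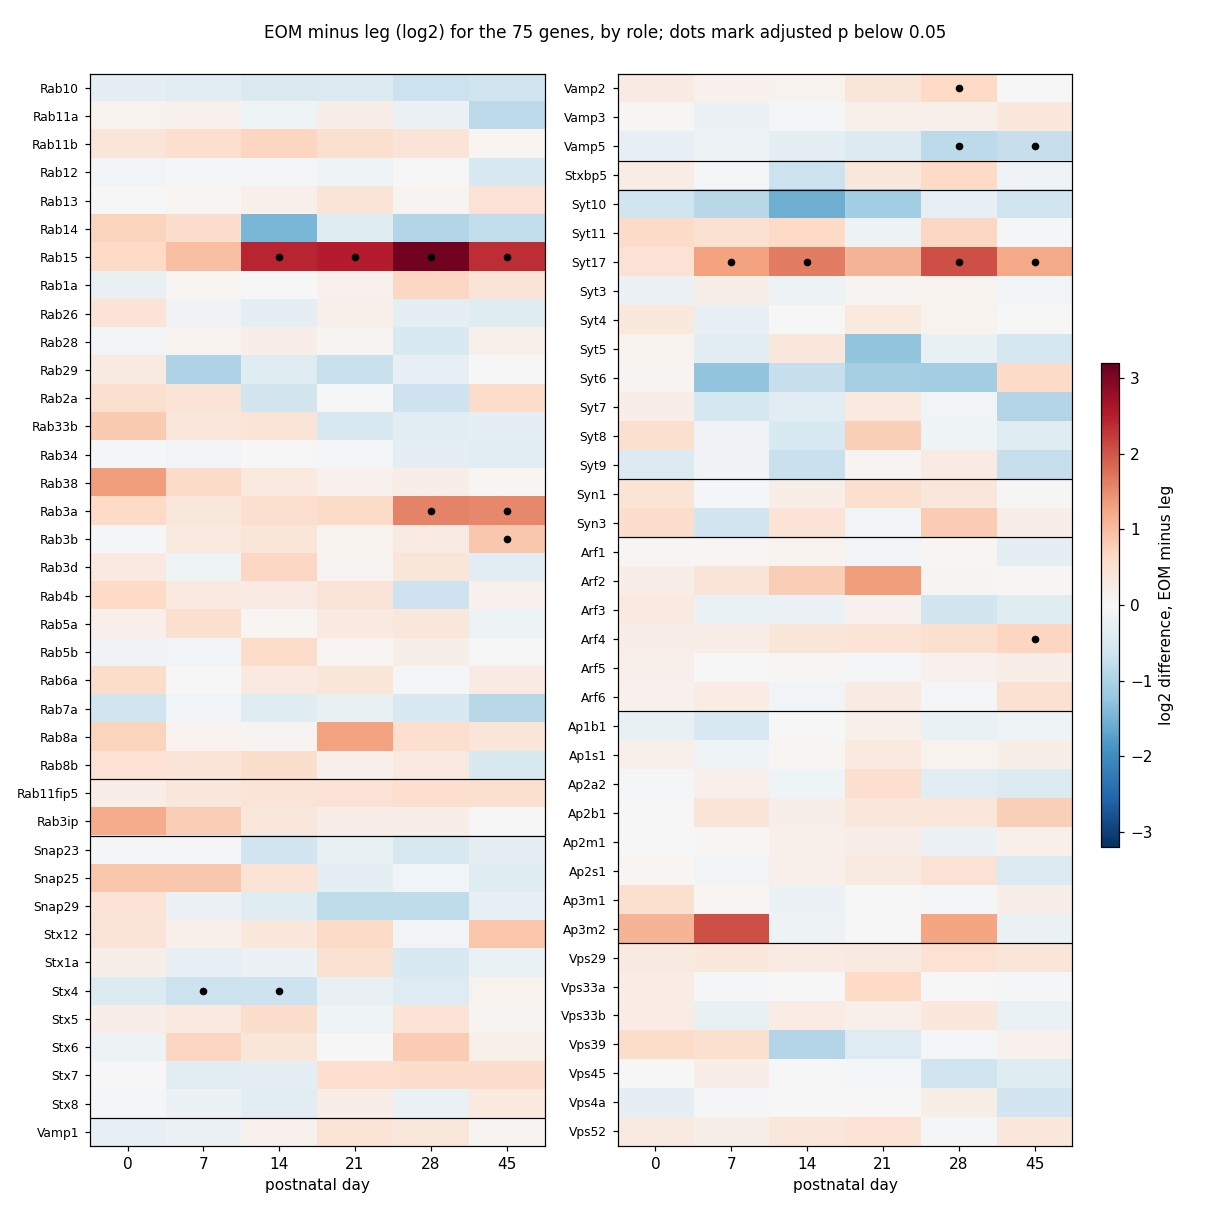
Log2 difference of EOM minus leg at each postnatal day for the 75 genes, one row per gene, with roles parted by lines and red for higher in EOM. Black dots mark an adjusted p below 0.05; the row of Rab15 holds the largest difference, 3.09 at day 28.

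The upstream sequence of 4 members is given because they carry the patterns just described: Rab15 (higher in EOM), Vamp5 (higher with age), and Rab8a and Arf4 (lower with age). Each is the 250 bases before the annotated start of the gene, 5′ to 3′ on the gene's strand, from RefSeq on build GRCr8. Rab15 lies on the minus strand at chr6:101257084-101257333, Vamp5 on the minus strand at chr4:105993248-105993497, Rab8a on the minus strand at chr16:17709413-17709662 and Arf4 on the plus strand at chr16:1903186-1903435. Capitals mark CANNTG, the E box bound by basic helix-loop-helix factors such as MyoD, and GGGCGG, the GC box bound by Sp1 and related factors.
Rab15: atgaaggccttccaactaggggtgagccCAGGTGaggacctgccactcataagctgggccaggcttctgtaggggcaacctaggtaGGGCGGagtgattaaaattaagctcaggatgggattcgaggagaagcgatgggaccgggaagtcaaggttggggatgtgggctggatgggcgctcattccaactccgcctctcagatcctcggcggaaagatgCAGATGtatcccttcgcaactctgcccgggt
Vamp5: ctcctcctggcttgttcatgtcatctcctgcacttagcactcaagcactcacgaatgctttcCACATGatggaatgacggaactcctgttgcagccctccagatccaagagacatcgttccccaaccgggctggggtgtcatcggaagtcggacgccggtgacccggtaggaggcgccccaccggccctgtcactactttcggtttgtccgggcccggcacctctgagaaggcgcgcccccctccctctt
Rab8a: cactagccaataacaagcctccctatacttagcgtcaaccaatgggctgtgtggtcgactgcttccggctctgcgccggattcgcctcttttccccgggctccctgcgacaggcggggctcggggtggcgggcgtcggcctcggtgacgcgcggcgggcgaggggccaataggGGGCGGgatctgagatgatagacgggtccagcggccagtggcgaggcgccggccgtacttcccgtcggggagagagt
Arf4: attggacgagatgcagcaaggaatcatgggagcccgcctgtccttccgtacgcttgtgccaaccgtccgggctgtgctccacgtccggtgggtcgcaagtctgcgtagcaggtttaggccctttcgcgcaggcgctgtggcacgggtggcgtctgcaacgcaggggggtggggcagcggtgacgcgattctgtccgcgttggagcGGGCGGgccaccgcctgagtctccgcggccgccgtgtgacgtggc

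Both strands were searched, and no CANNTG and GGGCGG match overlapped in the 4 windows. Rab15 holds 2 CANNTG and 1 GGGCGG, Vamp5 holds 1 CANNTG and no GGGCGG, and Rab8a and Arf4 hold 1 GGGCGG each and no CANNTG. Among the 33469 windows of the table, 65.5% hold CANNTG and 30.5% hold GGGCGG, so either match is common. Of the 64 members with a window, 32 hold CANNTG and 45 hold GGGCGG. Another 6 motifs were searched in the same way: CCAAT was found in 25 of the 64 against 34% of all windows, TATAAA in 1 against 12.9%, CAGCTG in 9 against 12%, CACCTG in 10 against 15.9%, TGACGTCA in 3 against 1.59% and TGACG in 26 against 18.2%. The CAGCTG and CACCTG matches are also CANNTG matches, and each TGACGTCA is also a TGACG. The motifs and the 4 genes were chosen after the expression values had been seen, and a match is a description of the letters, not a binding site.

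Between EOM and leg at single ages, counts of members past the threshold (limma, Benjamini-Hochberg adjusted p below 0.05) stayed near or under those of all genes. None of the 75 passed at day 0, where 6.51% of the 3889 genes did in either direction. At that age 6 members had an unadjusted p below 0.05, a cut at which no share of all genes was computed. Day 7 gave 1 higher member in EOM and 1 lower, against 3.55% and 1.85% of genes. Day 14 gave 2 higher and 1 lower, against 2.91% and 2.01%, and day 21 gave 1 higher and none lower, against 3.68% and 0.514%. At day 28 there were 4 higher and 1 lower, against 7.69% and 4.27% of genes, and at day 45 there were 5 higher and 1 lower, against 7.07% and 3.47%. As shares of the 75 members the last counts are 6.67% higher and 1.33% lower. At day 45 the count was 2 without leg replicate 2 and 3 without EOM replicate 2, and at day 28 it was 3 without EOM replicate 1 or leg replicate 3. With quantile normalization the higher and lower calls were 0 and 1 at day 7, 3 and 2 at day 28 and 5 and 2 at day 45, and with arrays scaled to one median 2 and 0 at day 14, 3 and 2 at day 28 and 3 and 1 at day 45. Fitted on the 6 arrays of an age alone, the calls of Rab15 at days 14, 21 and 45, Rab3a at days 28 and 45, Syt17 at day 45, Stx4 at days 7 and 14, Vamp5 at day 45, and Rab3b, Arf4 and Vamp2 were lost, while those of Rab15 and Vamp5 at day 28 and Syt17 at days 7, 14 and 28 stood. The median log2 difference of the members lay between 0 at day 45 and 0.21 at day 0, beside medians of 0.03 and 0.07 over all genes at those ages.

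Rab15, a Rab of early and recycling endosomes best known from neural tissue, had the largest log2 differences of the members at days 14, 21, 28 and 45. It exceeded the filter level on 14 arrays, 12 of EOM and 2 of leg, and so was tested only through EOM, where it is high; a difference over the 6 ages together was built into its passing. In EOM it read 382, 304 and 96.1 at day 0, then 201, 279 and 222 at day 7, and 921, 1018 and 284 at day 14. Later EOM arrays read 715, 730 and 827 at day 21, 1748, 1754 and 795 at day 28, and 972, 1014 and 769.5 at day 45. The leg arrays read 165, 101 and 91.2 at day 14, 226, 87.6 and 68.8 at day 21, 324, 93.7 and 122 at day 28, and 484, 111 and 104 at day 45. From day 14 on, every EOM array lay above every leg array of its age, and most leg arrays were under the filter level or at the floor.

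The log2 difference of Rab15 was 2.44 ± 0.58 (SE of the fit, n = 3 arrays a group; limma adjusted p = 0.00961) at day 14 and 2.52 ± 0.58 (0.00991) at day 21. It was 3.09 ± 0.58 (0.000426) at day 28 and 2.36 ± 0.58 (0.00734) at day 45. Rab15 passed the filter mainly through EOM arrays of these ages, so these p-values are no independent support. No fold is given, because leg readings this dim make the differences depend on the floor. Within the leg groups the array numbered 1 was the highest of 3 at all 6 ages. The call at day 28 held without any single array. At day 45 it was lost without leg replicate 2 (2.02, adjusted p = 0.055). At day 14 it was lost without EOM replicate 1 (2.18, 0.0643), EOM replicate 2 (2.10, 0.0722) or leg replicate 2 (2.32, 0.0531), and at day 21 without EOM replicate 3 (2.45, 0.0652) or leg replicate 2 (2.32, 0.0577). Within EOM, Rab15 was also brighter at day 45 than at day 0, by 2.01 ± 0.58 (adjusted p = 0.00831), a call lost without EOM day 0 replicate 3 (1.42, 0.0872). The same limit from the filter holds for that p-value.

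Rab3a, the Rab of synaptic vesicles that acts in transmitter release, differed at the 2 oldest ages. At day 28 it read 2409.5, 1685.5 and 1104.5 in EOM, against 685, 654 and 364 in leg. Readings at day 45 were 1117, 1425 and 1173 in EOM, against 475, 499 and 321 in leg. The groups did not overlap at either age, and EOM was 3.02-fold higher at day 28 (log2 1.59 ± 0.39, limma adjusted p = 0.00604) and 2.91-fold higher at day 45 (1.54 ± 0.39, 0.00938). At day 0 the EOM arrays read 762.3, 395 and 459.5 and the leg arrays 371, 359.5 and 275, which did not pass. The array numbered 3 gave the lowest Rab3a reading in 10 of the 12 groups, so the numbers carry a shared deviation for this probe set. The day 28 call was lost without EOM replicate 1 (1.32, adjusted p = 0.0554) or leg replicate 3 (1.30, 0.0521), while that of day 45 held without any single array.

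Rab3b, a relative of Rab3a found in secretory and some nerve cells, was higher in EOM at day 45. It read 1874, 2868 and 2615 in EOM at that age, against 1074, 1515 and 1400 in leg, with no overlap. EOM was 1.83-fold higher (log2 0.87 ± 0.27, limma adjusted p = 0.035). The second Rab3b probe set was dimmer and read 559, 460 and 386 in EOM, against 115, 81.3 and 52.5 in leg, a log2 difference of 2.14 ± 0.33 (limma adjusted p = 4.25e-05) that is a lower bound where leg lay under the floor. For the brighter probe set the call was lost without EOM replicate 2 or 3 or any of the leg replicates (0.73 to 0.98), and with arrays scaled to one median (0.82, adjusted p = 0.0534). Rab3d, found in secretory cells, passed at no age.

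**Figure D2:**
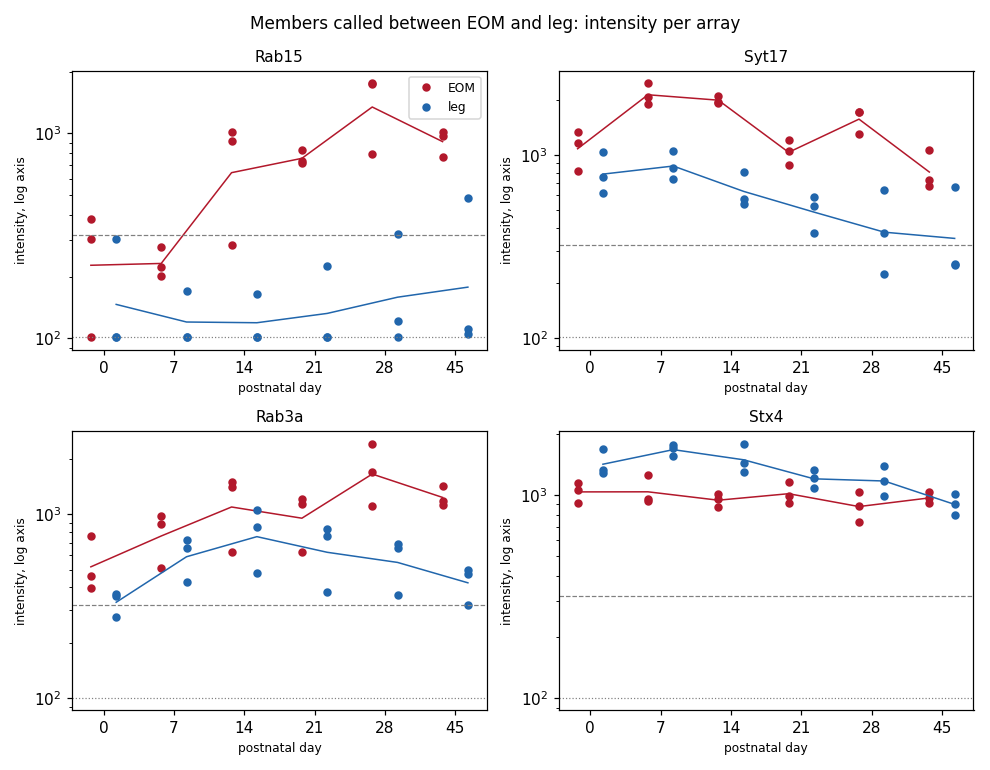
Intensity on a log axis against postnatal day for Rab15, Syt17, Rab3a and Stx4, with 1 point per array (EOM red and left, leg blue and right) and lines through the means of the log2 values. The dashed line is the filter level of 320.4 and the dotted line the floor of 100.9; from day 14 on the EOM points of Rab15 lie above all leg points of the same age.

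Of the 10 synaptotagmins tested, Syt17 was the member that passed at single ages. Syt17, also called B/K protein, has the paired C2 domains of the family. At day 7 it read 1893, 2070.0 and 2449 in EOM, against 846.5, 1042 and 742 in leg, and at day 14 it read 1937, 1920 and 2104 in EOM, against 541, 575 and 809 in leg. Day 28 gave 1718, 1719 and 1296 in EOM, against 224, 645 and 375 in leg, and day 45 gave 729, 677 and 1057 in EOM, against 254, 250.5 and 671 in leg. The EOM arrays lay above the leg arrays at each of these ages, narrowly so at day 45, where 677 in EOM met 671 in leg.

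EOM was 2.45-fold higher for Syt17 at day 7 (log2 1.29 ± 0.33, limma adjusted p = 0.0175) and 3.14-fold higher at day 14 (1.65 ± 0.33, 0.00187). The log2 difference was 2.05 ± 0.33 (6.97e-05) at day 28 and 1.20 ± 0.33 (0.0172) at day 45, without a fold because leg arrays lay under the filter level. At day 21 the values were 1046, 874 and 1200 in EOM and 590, 525 and 372 in leg, and the difference did not pass. Calls at days 14 and 28 held without any single array. That of day 7 was lost without EOM replicate 2 (1.31, adjusted p = 0.0579) or 3 (1.19, 0.0702) or leg replicate 1 (1.27, 0.0674) or 3 (1.18, 0.0811) and with quantile normalization (1.19, 0.0593), and that of day 45 without EOM replicate 3 (1.01, 0.0767) or leg replicate 1 (0.97, 0.112) or 2 (0.96, 0.118). In leg muscle Syt17 fell by 1.17 ± 0.33 on the log2 scale between day 0 and day 45 (adjusted p = 0.00699), with overlapping arrays, and the call was lost without leg day 45 replicate 1 (-0.94, 0.0559) or 2 (-0.92, 0.0588).

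The synaptotagmin of nerve terminals, Syt1, was too dim to test, with a highest reading of 255 on any array, and Syt2 reached 387 on its brightest array. Syt10 was lower in EOM over the 6 ages together (log2 -0.85 ± 0.26, limma adjusted p = 0.012) with most of its EOM readings under the filter level. The other 8 tested synaptotagmins (Syt3 to Syt9 and Syt11) passed in no comparison between the muscles. Syn1, a synapsin that coats synaptic vesicles, read 933 to 1800.0 in EOM and 1172 to 1562 in leg at day 45 and passed at no age, and Syn2 stayed at or under 319 on every array.

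Among the target SNAREs, Stx4, the plasma membrane syntaxin that takes part in GLUT4 insertion, was lower in EOM early on. At day 7 it read 936, 958 and 1251 in EOM, against 1564, 1760.0 and 1708 in leg, and at day 14 it read 955, 1008 and 875 in EOM, against 1437, 1792 and 1293 in leg. All leg arrays lay above all EOM arrays at both ages. EOM was 1.61-fold lower at day 7 (log2 -0.69 ± 0.18, limma adjusted p = 0.0229) and 1.58-fold lower at day 14 (-0.66 ± 0.18, 0.0302). By day 45 Stx4 read 916, 964.5 and 1032 in EOM and 1009, 801 and 903 in leg, and leg muscle had fallen by 0.66 ± 0.18 on the log2 scale since day 0 (adjusted p = 0.00608). That of day 7 was lost without EOM replicate 1 or 2 or leg replicate 2 or 3 (-0.61 to -0.68), and that of day 14 without any of 5 of the 6 arrays (-0.53 to -0.71), while it held without leg replicate 3. The day 14 call was also lost with arrays scaled to one median (-0.7, adjusted p = 0.0627). The leg change with age was lost without leg day 0 replicate 2.

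Snap25 and Stx1a, the target SNAREs of nerve terminals, passed at no single age. Snap25 read 330, 224 and 393 in EOM at day 45, against 563, 293 and 403 in leg, and the arrays overlapped. Stx1a read 1649, 1449 and 1104 in EOM at that age, against 1840, 1480.5 and 1503 in leg. Snap23, the more widely expressed relative of Snap25 that pairs with Stx4, was lower in EOM over the 6 ages together (log2 -0.30 ± 0.11, limma adjusted p = 0.0282), a call lost when its second probe set was averaged in and without replicate 2 of leg at day 0, 14 or 21.

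Of the 4 vesicle SNAREs, Vamp5 and Vamp2 passed. Vamp5, named myobrevin for its increase in cultured muscle cells as they differentiate, read 2707, 3179 and 2869 in EOM at day 28, against 4591, 5250 and 5892 in leg. At day 45 it read 2908, 2055 and 2684 in EOM, against 3803, 4242 and 4759 in leg. No arrays overlapped, and EOM was 1.79-fold lower at day 28 (log2 -0.84 ± 0.18, limma adjusted p = 0.00162) and 1.69-fold lower at day 45 (-0.75 ± 0.18, 0.00538). Without EOM replicate 2 the day 45 call was lost (-0.61, adjusted p = 0.0516). With the dimmer Vamp5 probe set averaged in, neither passed (-0.33, 0.614 at day 28 and -0.92, 0.0857 at day 45). The summed fibre markers given above were also lower in EOM at day 28, without overlap, and overlapped at day 45 (92800 to 228100 in EOM, 124600 to 153800 in leg). Singly, 1 of the 11 fibre markers passed as lower in EOM at each of these ages and none as higher. The part of the fibre markers in the Vamp5 difference was not tested.

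Vamp2, the vesicle SNARE of synaptic and GLUT4 vesicles, read 4452, 5058 and 3724 in EOM at day 28, against 3335, 2663 and 2517 in leg. EOM was 1.55-fold higher (log2 0.64 ± 0.21, limma adjusted p = 0.0463). The call was lost with quantile normalization, with arrays scaled to one median, with dim probe sets kept, with the second Vamp2 probe set averaged in, with the 6 arrays of that age alone, and without EOM replicate 1 or 2 or leg replicate 2 or 3. Vamp1 and Vamp3 passed at no age between the muscles. Vamp3, the cellubrevin of recycling endosomes, read 3309 to 3616 in EOM and 2444 to 2987 in leg at day 45.

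Arf4, a Golgi Arf, was the member of its family that passed at a single age, with 4921, 5138 and 3669 in EOM at day 45, against 2836, 2507 and 3137 in leg. EOM was 1.61-fold higher (log2 0.69 ± 0.20, limma adjusted p = 0.022), and the call was lost with arrays scaled to one median, with the 6 arrays of that age alone, and without EOM replicate 1 or 2 or leg replicate 1 or 2. None of the 8 adaptor subunits or 7 Vps proteins passed at a single age.

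At days 7, 14 and 21 same-numbered EOM and leg arrays deviated together. The fit with the replicate number as a block took out an effect of each number that is common to all groups. It did not pair the arrays within an age, so its calls are not paired tests. With the block 2 members passed at day 21 instead of 1, Arf2 joining Rab15 (Arf2 log2 1.34, limma adjusted p = 0.0308), and Rab11b joined at day 14 (0.69, adjusted p = 0.0368).

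Over the 6 ages together, 15 members were higher in EOM and 6 lower, against 21.4% and 11.3% of all genes, or 20% and 8% of the members. Rab15 (log2 2.00 ± 0.24, limma adjusted p = 7.99e-08), Syt17 (1.29 ± 0.14, 8.26e-09) and Rab3a (0.88 ± 0.16, 6.8e-05) had the largest positive differences. For Rab15 such a difference was built into its passing the filter, as stated above, so its p-value is no support. Smaller ones were those of Arf2, Rab3ip, Rab11b, Rab11fip5, Arf4, Ap2b1, Vps29, Rab3b, Vps52, Vamp2, Rab6a and Stx5, from 0.48 for Arf2 to 0.25 for Stx5. Rab3ip exceeded the filter level on 7 arrays, nearly all of EOM, and so was tested only through EOM, where it is high. Rab3ip is an exchange factor of Rab8, Rab11fip5 an effector of Rab11, Vps29 a retromer subunit and Vps52 a subunit of the GARP tether. The lower members were Syt10, Rab10 (-0.49 ± 0.11, adjusted p = 0.000986), Rab7a, Vamp5, Stx4 and Snap23. Rab10 acts in GLUT4 delivery in fat cells, and Rab7a directs traffic to lysosomes.

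The split between higher and lower depended on the scaling. With quantile normalization it was 7 higher and 9 lower, and with arrays scaled to one median 6 higher and 11 lower. The calls for Rab15, Syt17, Rab3a, Arf4, Rab11b and Rab11fip5 (higher) and Rab10, Rab7a, Snap23, Stx4, Syt10 and Vamp5 (lower) stood under both scalings. With all probe sets of a gene averaged, the calls of Vamp5 (-0.32, adjusted p = 0.0841), Vamp2 (0.08, 0.598), Stx5 (0.10, 0.468), Ap2b1 (0.08, 0.492) and Snap23 were lost. Ap2b1 was the least stable of the 21, since 25 of the 36 fits that left out 1 array lost its call (0.34 with all arrays, adjusted p = 0.0488).

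Markers of other cell types also differed between the muscles. At least 3 of the 8 tested Schwann cell markers were higher in EOM at every age and none was lower. Their summed intensity at day 28 was 31420 to 40400 per array in EOM, against 9931 to 13540 in leg, and at day 45 it was 25960 to 38360 in EOM, against 9531 to 16420 in leg. Of 6 axon and neuron markers 1 was higher in EOM at both ages, and their sum at day 45 was 3416 to 4059 in EOM, against 1819 to 2754 in leg. The filament gene Nefh lay at the floor on all 3 EOM arrays at day 28, and the Schwann cell factor Sox10 on all 3 leg arrays at day 45. At day 45, 4 of 6 endothelium and smooth muscle markers were higher in EOM. The part of these cells in the differences of Rab15, Rab3a and Syt17 was not tested.

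Between day 0 and day 45, 5 members rose and 18 fell in EOM, against 13.3% and 18.8% of all genes, which as shares of the members are 6.67% and 24%. In leg muscle 6 rose and 14 fell, against 14.5% and 18.8% of genes, or 8% and 18.7% of the members. With quantile normalization 8 rose and 15 fell in EOM and 11 rose and 14 fell in leg, and with arrays scaled to one median 8 rose and 12 fell in EOM and 9 rose and 13 fell in leg. The median change of the members was -0.21 in EOM, beside -0.03 for all genes, and 0.02 in leg, beside 0.05. Of the 75 members, 12 passed in both muscles, 11 in EOM but not leg, 8 in leg but not EOM and 44 in neither, and no member passed in opposite directions. Of those 12, 10 fell in both: Ap1s1, Ap2m1, Arf4, Arf6, Rab13, Rab38, Rab4b, Rab8a, Stx12 and Stx5. Rab3b and Vamp5 rose in both. The share of all genes that passed in both muscles was not computed, so these shared changes are not shown to be particular to the members.

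**Figure D3:**
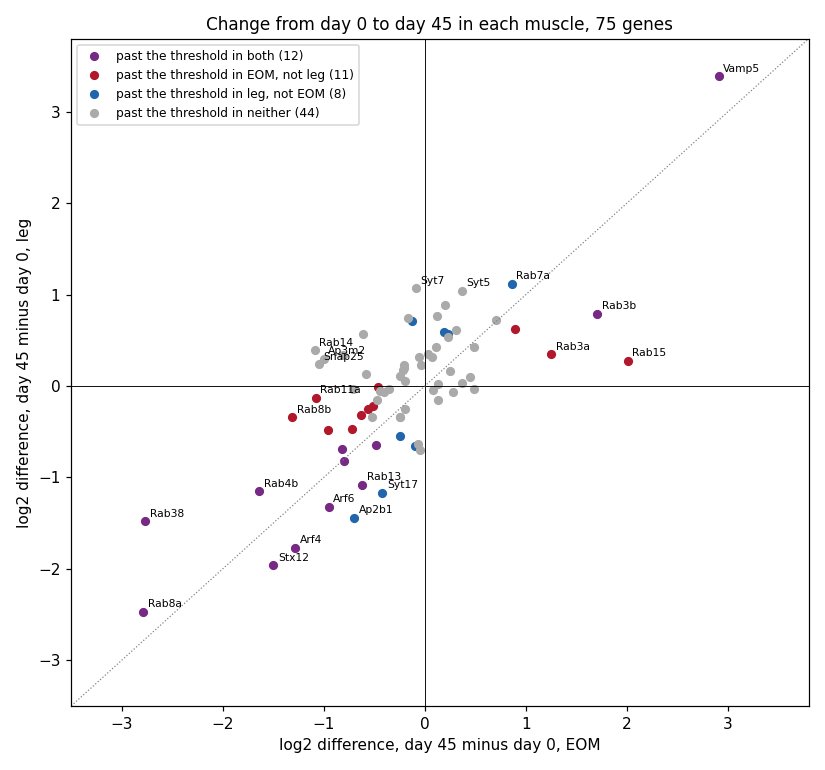
Log2 change of day 45 over day 0 in EOM (horizontal) and in leg (vertical) for the 75 genes, with colours for the muscles in which the adjusted p was below 0.05 and a dotted line of equal change. Vamp5 stands alone at upper right with 2.91 in EOM and 3.39 in leg, and the 10 genes that fell in both muscles lie at lower left.

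Vamp5 had the largest rise of any member. In EOM it read 393, 317.5 and 302 at day 0, 630.5, 869.5 and 793 at day 7, and 1965.5, 2190.4 and 1864 at day 14. The later EOM arrays read 3235, 3768 and 2979 at day 21, 2707, 3179 and 2869 at day 28, and 2908, 2055 and 2684 at day 45. Leg arrays read 356, 459 and 407 at day 0, 914, 713 and 958 at day 7, 1979, 2788.5 and 2677.5 at day 14, 4212, 4848 and 4345 at day 21, 4591, 5250 and 5892 at day 28, and 3803, 4242 and 4759 at day 45. In both muscles the steepest stretch lay between day 0 and day 21, and no array of day 45 overlapped with day 0.

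The change of Vamp5 to day 45 was 2.91 ± 0.18 in EOM (limma adjusted p = 1.62e-13) and 3.39 ± 0.18 in leg (3.79e-15), where it is 10.5-fold, and leaving out any single array gave 2.81 to 3.06 in EOM and 3.30 to 3.48 in leg. The second probe set of Vamp5 did not show it. It read 230.0, 363 and 155 at day 45 in EOM, against 860, 203 and 675 at day 0 (log2 -1.06 ± 0.65, adjusted p = 0.234), and 352, 782 and 454 at day 45 in leg, against 339, 218 and 401 at day 0 (0.69 ± 0.65, 0.445). That probe set is dimmer and its replicates scatter widely, and which of the 2 follows the transcript cannot be told from these arrays. With both averaged the change was 0.93 in EOM (adjusted p = 0.0385) and 2.04 in leg (2.15e-05).

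**Figure D4:**
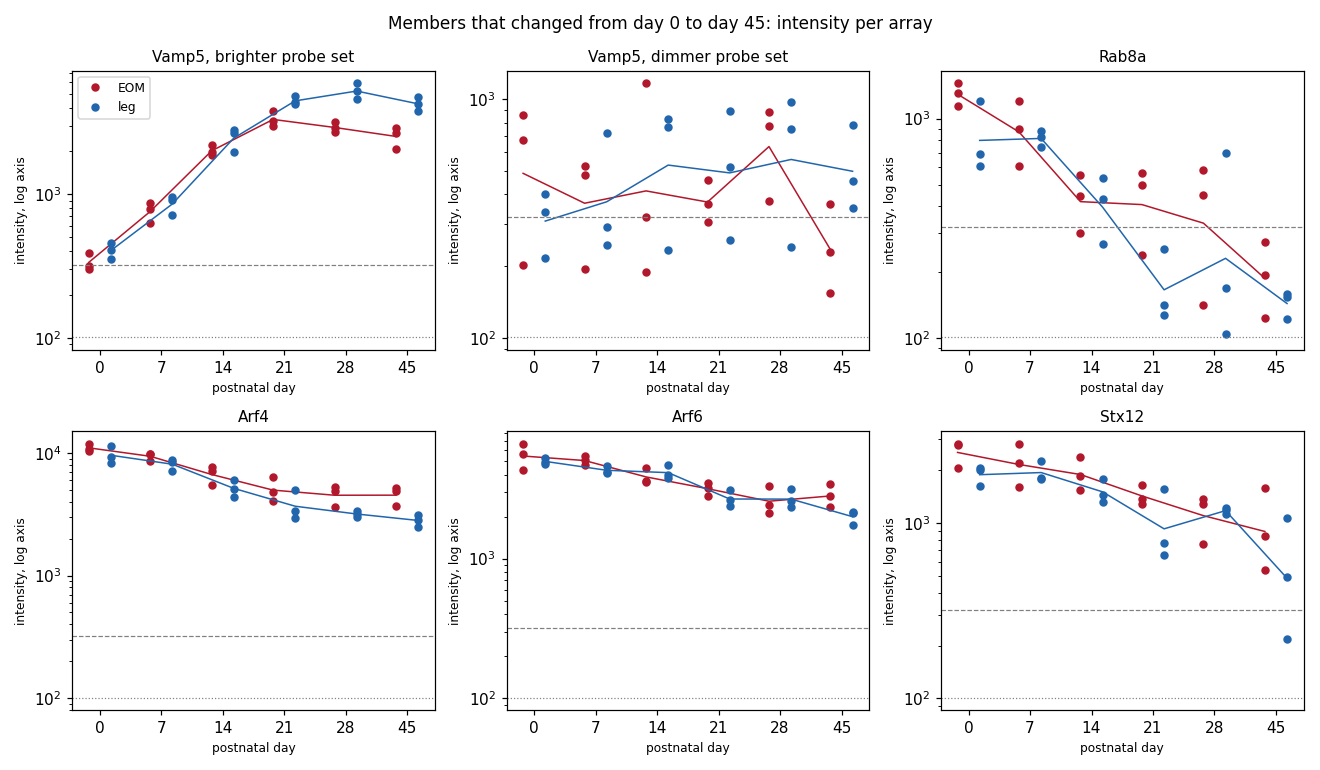
Intensity on a log axis against postnatal day for both Vamp5 probe sets and for Rab8a, Arf4, Arf6 and Stx12, with 1 point per array (EOM red and left, leg blue and right), lines through the means of the log2 values, and the filter level (dashed) and floor (dotted). The brighter Vamp5 probe set climbs in both muscles and the dimmer one scatters, and the other genes lie lower at day 45 than at day 0.

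Rab8a, which carries vesicles from the Golgi and recycling endosomes to the cell surface and takes part in GLUT4 delivery in cultured muscle cells, had the largest fall in both muscles. EOM arrays read 123.0, 194 and 275 at day 45, against 1444.5, 1303 and 1143 at day 0. Leg arrays read 122, 154 and 158 at day 45, against 609, 689.5 and 1198 at day 0. No arrays overlapped, and the log2 change was -2.79 ± 0.52 in EOM (limma adjusted p = 9.91e-05) and -2.47 ± 0.52 in leg (0.000395). Day 45 readings were all under the filter level, so no fold is given. Both calls held under every alternative and without any single array. Its close relative Rab8b fell by 1.31 ± 0.47 on the log2 scale in EOM (adjusted p = 0.0347), with overlapping arrays, and the call was lost without EOM day 0 replicate 1 or 2 and with dim probe sets kept. Without EOM day 45 replicate 3, which read 37.5, the change was -0.47 (adjusted p = 0.422).

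Arf4 and Arf6 fell in both muscles. Arf4 read 4921, 5138 and 3669 at day 45 in EOM, against 10809, 11904 and 10396 at day 0, and 2836, 2507 and 3137 at day 45 in leg, against 8262, 11474 and 9288 at day 0. The change was -1.28 ± 0.20 in EOM (limma adjusted p = 6.94e-06) and -1.77 ± 0.20 in leg (2.83e-08). Day 0 readings of Arf4 reached the brightest 5% of values in both muscles, so its change may be understated. Arf6, which acts at the plasma membrane in endocytic recycling, read 3413, 2792 and 2327 at day 45 in EOM, against 5597, 6652 and 4299 at day 0. In leg it read 2112.5, 2172.5 and 1732 at day 45, against 4747, 5250.3 and 4919 at day 0. It was 1.93-fold lower in EOM (-0.95 ± 0.18, 0.000135) and 2.49-fold lower in leg (-1.32 ± 0.18, 1.12e-06). These 4 calls held under every alternative and without any single array. Arf1, which recruits the COPI coat at the Golgi, passed in EOM (-0.56 ± 0.19, 0.0207) with 33 of its 36 readings in the brightest 5%, a call lost without EOM day 0 replicate 1 or 2 or day 45 replicate 2 (-0.45 to -0.46) and with arrays scaled to one median (-0.45).

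Stx12, a syntaxin of recycling endosomes, read 1593, 537 and 838 at day 45 in EOM, against 2068, 2770.1 and 2823 at day 0. In leg it read 217.5, 490 and 1068 at day 45, against 1625, 2059 and 2009 at day 0. It fell by 1.5 ± 0.39 on the log2 scale in EOM (2.83-fold, limma adjusted p = 0.00346) and by 1.96 ± 0.39 in leg (0.000194). The day 45 arrays spread widely but lay under all of day 0. The second, near-floor probe set of Stx12 gave -0.52 and -0.11 and passed in neither muscle. Stx5, the syntaxin of traffic between endoplasmic reticulum and Golgi, was 1.76-fold lower in EOM (log2 -0.82 ± 0.19, 0.00125) and 1.61-fold lower in leg (-0.69 ± 0.19, 0.00563), and held without any single array.

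Rab38, known for the biogenesis of melanosomes and related organelles, and Rab4b, a Rab of endosomal recycling, fell in both muscles by their brighter probe sets. Rab38 read 115, 271 and 231 at day 45 in EOM, against 1323, 1444 and 1190.1 at day 0, and 138, 216 and 219 at day 45 in leg, against 451, 519 and 605 at day 0. Its change was -2.77 ± 0.46 in EOM (limma adjusted p = 1.96e-05) and -1.48 ± 0.46 in leg (0.0125), the leg call being lost without leg day 45 replicate 1 (-1.26, 0.0665). Rab4b was 3.12-fold lower in EOM (-1.64 ± 0.37, 0.000768) and 2.22-fold lower in leg (-1.15 ± 0.37, 0.0148), the leg call being lost without leg day 0 replicate 3 or day 45 replicate 1. A second, dimmer probe set of each gene passed in neither muscle, with changes of 0.24 in EOM and -0.13 in leg for Rab38 and of 0.11 and 0.20 for Rab4b. With both probe sets averaged the leg calls of both genes were lost.

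At day 0 Rab38 was brighter in EOM than in leg by 1.34 ± 0.46, which did not pass (limma adjusted p = 0.0843), although all EOM arrays lay above all leg arrays. At the same age 8 of 8 gland and epithelial markers were higher in EOM, with a summed intensity of 27100 to 36950 per array, against 1922 to 3397 in leg. By day 45 that sum was 1530 to 4006 in EOM, and 7 of the 8 markers had fallen there since day 0. The part of these cells in the EOM changes with age, among them those of Rab38, was not tested.

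The adaptor subunits that changed were lower at day 45. Ap1s1, of the AP-1 complex at the trans-Golgi network and endosomes, was 1.74-fold lower in EOM (log2 -0.80 ± 0.16, limma adjusted p = 0.000275) and 1.76-fold lower in leg (-0.82 ± 0.16, 0.000205) and held without any single array. Ap2s1, of the endocytic AP-2 complex, was 1.94-fold lower in EOM (-0.96 ± 0.20, 0.00037), and its second probe set fell in both muscles. Ap2m1, another AP-2 subunit with 19 of 36 readings in the brightest 5%, changed by -0.48 ± 0.15 in EOM (0.0122) and -0.64 ± 0.15 in leg (0.00108), and the EOM call was lost without day 45 replicate 2 or 3. Ap2b1 in leg rested in size on 1 array: it read 1485, 362 and 1588 at day 45, against 2620, 2835.5 and 2282 at day 0, and without leg day 45 replicate 2 the change was -0.74 (adjusted p = 0.0165) instead of -1.44 ± 0.33. Ap3m1, of the AP-3 complex, passed in EOM with -0.51 ± 0.20 (0.0484), a call lost in 5 of 6 fits that left out 1 array.

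Other members that fell did so with smaller or less stable changes. Rab13, which acts at cell junctions and in GLUT4 delivery, was 2.12-fold lower in leg (log2 -1.08 ± 0.21, limma adjusted p = 0.000156) and 1.53-fold lower in EOM (-0.62 ± 0.21, 0.0245), the EOM call being lost without day 0 replicate 1 or 2 or day 45 replicate 1 or 3. Rab11a, a Rab of recycling endosomes, was 2.12-fold lower in EOM (-1.08 ± 0.31, 0.00755), though replicate 1 of day 45 read 3261 beside 1016 and 1081. Without that array the change was -1.63, and without replicate 2 or 3 it was -0.79 or -0.83 and did not pass. Both other Rab11a probe sets also fell in EOM (-0.66 and -0.84). Rab6a of the Golgi, Snap23 and Vps33b fell in EOM by 0.63, 0.72 and 0.46 on the log2 scale, and each call was lost without at least 2 single arrays. Vamp3 fell in leg by 0.55 ± 0.17 (0.0102), a call lost without replicate 2 of leg at day 0 or day 45.

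Members that rose beside Vamp5 were mostly Rabs. Rab3b read 1874, 2868 and 2615 at day 45 in EOM, against 1007, 627 and 636 at day 0, a 3.27-fold rise (log2 1.71 ± 0.27, limma adjusted p = 1.13e-05) that its second probe set shared (1.96 ± 0.33, 2.26e-05). In leg it rose 1.73-fold (0.79 ± 0.27, 0.0253), which the second probe set did not share (-0.57, 0.189) and which was lost without leg day 0 replicate 3 or day 45 replicate 2 or 3. Rab3a was 2.38-fold higher at day 45 in EOM (1.25 ± 0.39, 0.0142), a call lost without EOM replicate 2 of day 0 or of day 45. Rab28 rose 1.85-fold in EOM (0.89 ± 0.25, 0.00686), lost without replicate 1 of EOM at day 0 or day 45.

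In leg muscle Rab7a was 2.17-fold higher at day 45 (log2 1.12 ± 0.37, limma adjusted p = 0.0182), with 3310, 3706.5 and 2449 at day 45, against 1252, 1582 and 1476 at day 0. Its call was lost without leg day 0 replicate 1 or day 45 replicate 1 or 2. Rab12, Rab26 and Vps4a, an ATPase of the ESCRT pathway, were 1.5-fold, 1.64-fold and 1.48-fold higher in leg with adjusted p-values of 0.0225, 0.0304 and 0.046, and each call was lost without at least 3 of the 6 arrays.

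No member passed the test of whether the change to day 45 differed between EOM and leg, which 3.68% of all genes passed in either direction. At an unadjusted p below 0.05, a cut at which no share of all genes was computed, there were 7 members. They were Rab15 (log2 1.73 ± 0.82, limma adjusted p = 0.331), Rab3b (0.92 ± 0.38, 0.233) and Stx4 (0.56 ± 0.26, 0.314) with positive differences, and Rab3ip (-1.18 ± 0.53, 0.281), Rab33b (-1.15 ± 0.46, 0.206), Rab11a (-0.95 ± 0.44, 0.305) and Rab26 (-0.85 ± 0.36, 0.246) with negative ones. A member that passed in one muscle and not in the other is therefore not shown to differ between them. The median of the members was -0.29, beside -0.03 for all genes.

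The moderated F test over all 6 ages called 17 members in EOM and 24 in leg, against 31.9% and 36.3% of all genes, or 22.7% and 32% of the members. Vamp5 had the smallest adjusted p in both (3.09e-15 in EOM and 1.28e-16 in leg), followed by Arf4 (2.17e-06 and 1.15e-08) and Arf6 (2.56e-05 and 2.11e-06). Of the 75 members, 31 passed in none of the 12 comparisons, a share that was not computed over all genes. Genes that were too dim to test were Ap1s3, Rab27a, Rab3c, Rab4a, Snap91, Stx3, Stxbp2, Syn2, Syt1, Syt12, Syt2 and Vps26a.

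Of 138 other genes of vesicle traffic that were listed, 73 were tested. At day 0, 4 differed between the muscles, against 6.51% of all genes. At day 28, 7 were higher in EOM and 2 lower, against 7.69% and 4.27% of genes, and at day 45, 5 were higher and 4 lower, against 7.07% and 3.47%. Synj2, a phosphatase that helps to uncoat endocytic vesicles, was 1.86-fold higher at day 0 (log2 0.90 ± 0.19, limma adjusted p = 0.00255) and 2.55-fold higher at day 28 (1.35 ± 0.19, 1.35e-05), and both calls held without any single array. Scamp2, a carrier protein of recycling membranes, was 3.50-fold higher at day 45 (1.81 ± 0.37, 0.0012), and Dnm1, the dynamin of nerve terminals, differed by 1.70 ± 0.38 at day 45 (0.00296), a call lost without leg replicate 2 (0.98, 0.0511). Rabac1 at day 0 (log2 0.92) and Pacsin2 at day 45 (2.08, leg mostly under the filter level) were also higher and held without any single array. Among those lower in EOM were Cav3 at day 0 (-0.73) and Cyth1 at day 45 (-1.52, EOM mostly under the filter level). The Cav3 call held in 2 and the Cyth1 call in 1 of the 6 fits that left out 1 array.

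Between day 0 and day 45, 6 of the 73 rose and 13 fell in EOM, against 13.3% and 18.8% of all genes, and 11 rose and 15 fell in leg, against 14.5% and 18.8%. Slc2a4, the gene of GLUT4, the cargo that Stx4, Vamp2, Rab8a and Rab13 help to deliver, rose by 2.92 ± 0.20 on the log2 scale in EOM (limma adjusted p = 1.14e-12) and by 2.81 ± 0.20 in leg (2.17e-12). Tfrc, the transferrin receptor, rose by 2.01 ± 0.34 in EOM and by 2.66 ± 0.34 in leg, and Igf2r, a receptor that sorts lysosomal enzymes, fell by 1.79 ± 0.24 in EOM and by 2.99 ± 0.24 in leg. The change differed between the muscles for 2 of the 73, against 3.68% of all genes, Pacsin2 (2.32 ± 0.67, adjusted p = 0.0454) and Igf2r (1.20 ± 0.34, 0.0442), and both calls were lost in 10 of the 12 fits that left out 1 array and with dim probe sets kept, and that of Igf2r with quantile normalization (1.14, 0.0642).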

How the data were processed

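Total RNA of EOM and leg muscle was measured on 36 arrays, and group, age and replicate number came from the labels. The deposited values are linear intensities, 1 for each probe set on each array. The arrays share a trimmed mean of 1499.4 to 1501.1, so the authors' values had been scaled to one target, and the summarising software is not stated in the labels.

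The scaling was kept. Intensities were floored at 100.9 (the 20th percentile) and turned to log2, and probe sets brighter than 320.4 (the 40th percentile) on at least 3 arrays were kept, 6672 of 8799. Gene names came from the platform annotation. One linear model over all 36 arrays with a term per group was fitted with limma 3.58.1 in R 4.3.3 (trended empirical Bayes, two-sided, 24 residual degrees of freedom), and every adjusted p is Benjamini-Hochberg over the 6672 probe sets with a threshold of 0.05. No fold is given where the dimmer group reached the filter level or a reading lay at or above 9392.2, the brightest 5%. The steps were tested on simulated data. For EOM against leg at day 45, 39% of the simulated 2-fold changes and 89% of the 4-fold changes were recovered. A gene that did not pass may therefore still differ by 2-fold.

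The genes and lists were chosen with earlier results of these data known. Any member past the threshold could be named, with array values for up to 4 per comparison by size and for Snap25, Vamp2, Vamp3, Stx4, Stx1a, Syt1, Rab3a, Syn1 and Syn2 throughout, and up to 4 other traffic genes per comparison. Array values of Vamp5 and Arf4 between the muscles at day 45, and of Arf4, Arf6, Stx12, Rab3b, Rab7a, Rab11a and Ap2b1 with age where they fell outside that limit, were added after their values were seen. Alternatives were quantile normalization, scaling to one median, a lower floor, no filter, the mean over a gene's probe sets, the replicate number as a block, only the 6 arrays compared, and each array left out. Same-numbered EOM and leg arrays deviated together (every correlation over 0.1) at days 7, 14 and 21, with 0.101 to 0.369, but not at days 0, 28 and 45, where correlations ran from -0.095 to 0.255.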

Additional observations from a re-analysis of the deposited data

Results flagged for a closer look

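The change between day 0 and day 45 differed between the muscles for 2 of the 73 other traffic genes, by the test of the difference itself. Of all genes 3.68% passed that test, so the count is not above that of all genes. Pacsin2, a membrane-bending protein of endocytosis, differed by 2.32 ± 0.67 on the log2 scale (EOM minus leg, limma adjusted p = 0.0454). Igf2r differed by 1.20 ± 0.34 (0.0442), falling less in EOM than in leg. Both calls were lost with dim probe sets kept (adjusted p = 0.0679 for Pacsin2 and 0.0569 for Igf2r), and that of Igf2r with quantile normalization (1.14, 0.0642). Each call held in only 2 of the 12 fits that left out 1 array. Pacsin2 read 405, 116 and 197 in leg at day 45, mostly under the filter level, so its difference depends on the floor. No cause was tested.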

How the results depend on the processing

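For members past the threshold, and for up to 4 other traffic genes per comparison, no difference changed direction under the alternatives. The median over the members did. At day 7 it was 0.05, but -0.02 with quantile normalization and -0.03 with arrays scaled to one median. At day 28 it was 0.08, but -0.05 and -0.01 with these scalings. Second probe sets and differences that did not pass were not recomputed. Counts of members past the threshold moved as follows. At day 0 the count was 0, and it was 1 with no filter on dim probe sets, 1 with the mean over a gene's probe sets and 1 with only the 6 arrays compared. At day 7 it was 1 with quantile normalization instead of 2. With only the 6 arrays compared it was 1 at day 14 instead of 3, 0 at day 21 instead of 1, 3 at day 28 instead of 5 and 0 at day 45 instead of 6, in fits with fewer samples. The test of the difference in change gave 1 with the mean over probe sets instead of 0.

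With the replicate number as a block common to all groups, 2 members passed at day 0, Rab38 (1.34, limma adjusted p = 0.015) and Rab3ip (1.18, 0.0313), and 2 at day 21. At day 0 same-numbered arrays did not deviate together, and Rab3ip was tested only through EOM, as stated above. At days 7, 14 and 21 the block changed no other call than those of Arf2 and Rab11b given above.

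Leaving out 1 array gave 0 to 1 members at day 0, 0 to 1 at day 7, 1 to 3 at day 14, 0 to 2 at day 21, 3 to 6 at day 28 and 2 to 7 at day 45, and 0 to 1 for the difference in change. It gave 19 to 25 over the 6 ages together, 16 to 23 for EOM with age and 14 to 19 for leg with age.

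Scaling to one median shifted the median over all genes by -0.124 at day 0, -0.136 at day 21 and 0.109 for EOM with age, and quantile normalization by -0.102 at day 21. Readings near the floor, such as Rab15 in leg and Rab8a at day 45, limit how large a difference can appear.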
